A study of Sus scrofa with 7 samples.

Results

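Telomeres, the repeat-tipped ends of chromosomes, are kept up by telomerase and covered by the shelterin complex. Telomerase is a reverse transcriptase that carries its own RNA template; TERT is its catalytic protein, and dyskerin (DKC1) and NOP10 belong to the H/ACA proteins that bind and stabilise the RNA. Within shelterin, TRF1 (TERF1) and TRF2 (TERF2) bind the double-stranded repeat, POT1 binds the single-stranded overhang, TPP1 (ACD) pairs with POT1 and brings telomerase to the end, and TIN2 (TINF2) joins the parts together. Nucleostemin (GNL3) is a nucleolar GTPase that is abundant in stem cells and can bind TRF1, and GNL3L is its closest relative and also binds TRF1. TERT and nucleostemin are well known as genes that are active in pluripotent stem cells and are lowered when such cells differentiate.

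These 10 genes, 3 of telomerase, 5 of shelterin and 2 of the nucleostemin pair, were selected by name from the 29510 genes listed in a porcine RNA-seq series. The series held 7 libraries, each from a separate cell line. Porcine extraembryonic endoderm (pXEN) cells were 3 lines derived from the inner cell mass of parthenogenetic blastocysts and grown on mouse embryonic fibroblast feeders in LCDM medium (LIF, CHIR99021, dimethindene and minocycline), sequenced at passages 26, 26 and 23. Naive-like embryonic stem cells (nESCs) were 2 lines on the same kind of feeder in a medium with FGF, LIF, PD0325901, CHIR99021, SB431542 and doxycycline, at passages 21 and 22. Primed embryonic stem cells (pESCs) were 2 lines converted from naive-like cells and kept on mouse STO feeders with activin A, bFGF, EGF and LIF, both at passage 20. Cell type, medium and passage differed between all groups, and the feeder also differed between pESCs and the other groups, so their parts cannot be told apart, and no untreated baseline other than the embryonic stem cells was used.

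Total gene counts per library ran from 10408164 to 12995720. The endoderm markers GATA4, GATA6, SOX17 and HNF4A were all higher in pXEN cells than in either stem cell group, with a summed level of 1907 to 2649 CPM (counts scaled to library size) against 29.5 to 40.5. SOX2 had 1633 to 2729 counts in the stem cell lines and 0, 30 and 0 in pXEN lines 1, 2 and 3. The other pluripotency markers did not follow the labels: POU5F1 and DPPA4 had at most 5 counts in any library, and NANOG had 177, 60 and 166 counts in the pXEN lines, 0 and 2 in nESCs, and 21 and 22 in pESCs. NANOG was thus higher in pXEN cells than in nESCs (7.06 on the log2 scale, adjusted p = 0.000405) and pESCs (2.95, adjusted p = 0.00556). The authors, by staining, PCR and western blot, reported OCT4 (the product of POU5F1) and NANOG in nESCs but not in pXEN cells. They also reported OCT4 staining in pESCs. The cause of this disagreement was not tested, and the low counts of POU5F1 and DPPA4 cannot be read as absence of their RNA. Fibroblast markers (7 of 8 on the list had a row) summed to 9.61, 478 and 27.2 CPM in pXEN lines 1, 2 and 3, to 45.9 and 47.2 in nESCs, and to 123 and 191 in pESCs. Line 2 also had 38 counts on the Y chromosome against 0 to 11 in the other libraries, and results that rest on it are given with and without it.

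All comparisons below are on the log2 scale from edgeR's quasi-likelihood test over the 17447 genes that passed a filter on low counts, with Benjamini-Hochberg adjusted p-values, and a gene was called at an adjusted p below 0.05. Of the 10 genes, 9 passed that filter and 1, TINF2, had 0 counts in every library. In pXEN cells against nESCs, 7 of the 9 tested genes were lower (77.8%) and 0 were higher, where 26.2% of all tested genes were lower and 28.3% were higher. Against pESCs, 4 of 9 were lower (44.4%) and 0 were higher, beside 24.4% and 23.9% of all tested genes. Between the stem cell states, 3 of 9 were lower in pESCs than in nESCs (33.3%) and 0 were higher, beside 13.3% and 19% of all tested genes. The median log2 difference over the 9 genes was -0.84 for pXEN cells against nESCs, -0.35 against pESCs and -0.37 for pESCs against nESCs, while the median over all tested genes lay between -0.01 and 0.01 in these comparisons. No member was higher in any comparison with the DESeq2 or limma alternatives, or at an unadjusted p below 0.05. The count against pESCs fell to 2 without either pESC line, and that of pESCs against nESCs ran from 1 (without pXEN line 1 or any one stem cell line) to 6 (without pXEN line 2). The pairs of comparisons share libraries and are not independent of each other. RNA levels were measured, and neither telomere length nor telomerase activity was analysed here.

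**Figure D1:**
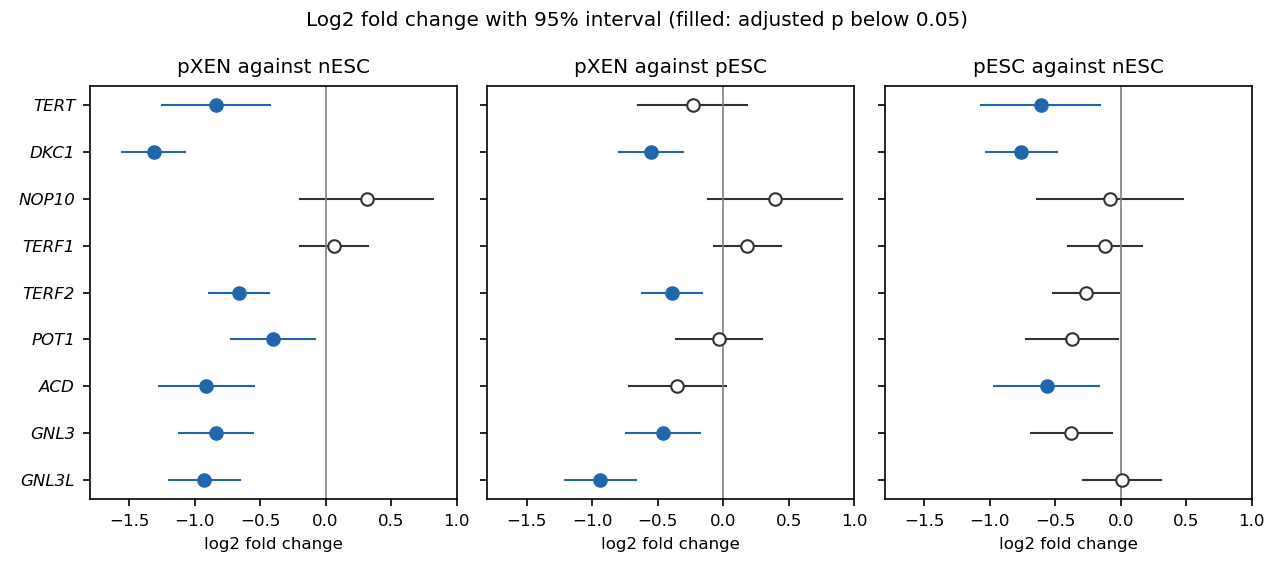
Log2 fold changes of the 9 tested genes (horizontal axis, with 95% confidence intervals as bars) for pXEN cells against nESCs, pXEN cells against pESCs and pESCs against nESCs; filled points passed an adjusted p of 0.05. DKC1 sits farthest left in the comparison with nESCs at -1.31, GNL3L is the lowest against pESCs at -0.94, and no filled point lies to the right of 0.

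TERT, the catalytic subunit of telomerase (ENSSSCG00000017118, Sscrofa10.2 chromosome 16, 85917096 to 85932895, plus strand), was read in all 7 libraries. Its level was 12.2, 8.52 and 12.1 FPKM, a measure of reads scaled to listed gene length and library size, in pXEN lines 1, 2 and 3, 19.9 and 19.1 in nESCs, and 14.3 and 11.5 in pESCs, from 340 to 837 counts a library. The pXEN lines all lay below both nESC lines, while pXEN lines 1 and 3 lay within the pESC range and line 2 lay below it. The group means were 10.9 ± 2.10 (SD, n = 3), 19.5 ± 0.582 (n = 2) and 12.9 ± 2.01 (n = 2). Expressed as a fold, TERT was 1.79 times lower in pXEN cells than in nESCs (log2 difference -0.84, SE 0.18, adjusted p = 0.00468). The difference from pESCs was -0.23 with a 95% interval of -0.65 to 0.19 (adjusted p = 0.326), which did not pass the test and leaves room for a difference of either sign. In pESCs, TERT was 1.52 times lower than in nESCs (log2 difference -0.61, SE 0.20, adjusted p = 0.0475). That last call stood near the threshold and was kept in 6 of 17 alternative fits, with adjusted p-values from 0.00463 to 0.852. It was lost without any single library other than pXEN line 2, at -0.45 without pESC line 2 (adjusted p = 0.265) and at -0.77 to -0.58 without the others.

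The other genes on chromosome 16 leaned the same way as TERT where it was called. The median log2 difference of these 297 tested genes was -0.73 in pXEN cells against nESCs, -0.05 against pESCs and -0.49 in pESCs against nESCs, so that TERT stood only 0.10, 0.18 and 0.11 below the chromosome's median in the respective comparisons. By library, the median deviation of chromosome 16 genes from their mean over the series was -0.25, -0.08 and -0.27 in the pXEN lines, 0.29 and 0.41 in nESCs, and -0.15 and -0.12 in pESCs. TERT less that median was 0.12, -0.56 and 0.12 in the pXEN lines, 0.28 and 0.11 in nESCs, and 0.23 and -0.11 in pESCs, and these values overlap between the groups. When libraries were scaled within each chromosome, a setting added after the data were seen, TERT was at -0.24 in pXEN cells against nESCs (adjusted p = 0.345), -0.17 against pESCs (adjusted p = 0.516) and -0.07 in pESCs against nESCs (adjusted p = 0.852), and both of its calls were lost. Whether the number of copies of chromosome 16 differed between the lines was not tested.

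**Figure D2:**
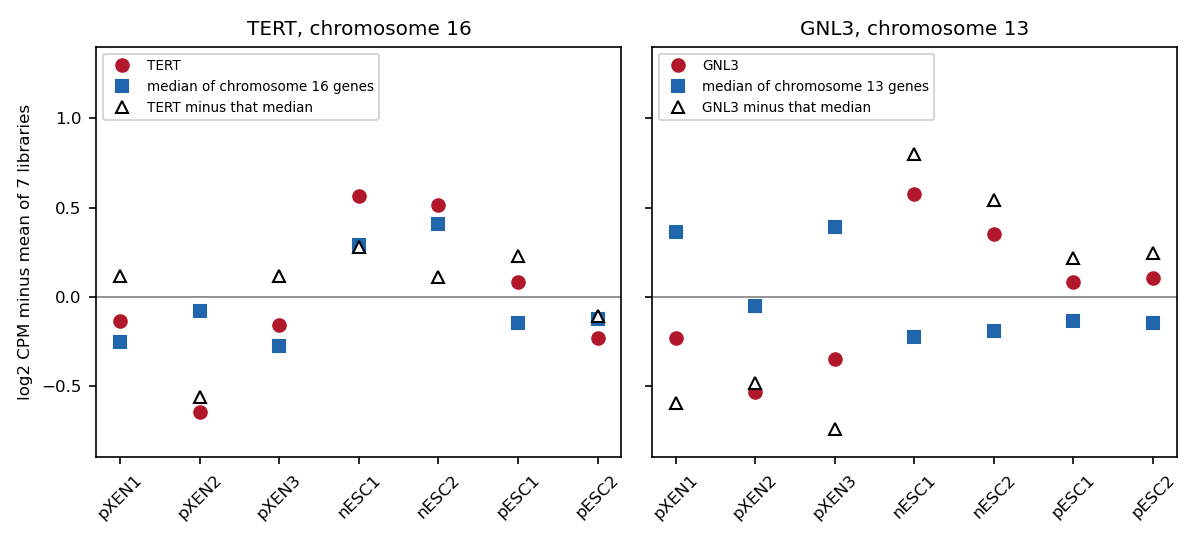
Log2 CPM less the mean of the 7 libraries (vertical axis) in each library (horizontal axis) for TERT with chromosome 16 (left) and GNL3 with chromosome 13 (right); circles are the gene, squares the median of the tested genes on its chromosome, and open triangles the gene less that median. The triangles of TERT overlap between groups, from -0.56 to 0.28, while those of GNL3 are all below 0 in the pXEN lines, at -0.74 to -0.48, and above 0 in the 4 stem cell lines, at 0.22 to 0.80.

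DKC1 encodes dyskerin, the pseudouridine synthase of the H/ACA particles and a core part of telomerase (ENSSSCG00000012823, chromosome X, 143254269 to 143264309, minus strand). Its FPKM level was 46.7, 53.4 and 47.4 in the pXEN lines, 128 and 115 in nESCs, and 71.7 and 73.5 in pESCs. The groups did not overlap, with means of 49.2 ± 3.63 (SD, n = 3), 122 ± 9.40 (n = 2) and 72.6 ± 1.26 (n = 2). It showed the biggest difference among the 9 tested genes in the comparison with nESCs, being 2.48 times lower in pXEN cells (log2 difference -1.31, SE 0.10, adjusted p = 2.87e-05). Dyskerin RNA was also 1.47 times lower in pXEN cells than in pESCs (-0.55, SE 0.11, adjusted p = 0.00336) and 1.69 times lower in pESCs than in nESCs (-0.76, SE 0.12, adjusted p = 0.00221). All 3 calls were kept in the 17 alternative fits, and the median of the 561 other tested genes on the X chromosome lay between -0.05 and 0.09 in the same comparisons. SNORA36, a small nucleolar RNA gene held within DKC1, had 0 to 11 counts and adds little to the reads of this interval.

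NOP10, the small H/ACA protein that binds dyskerin (ENSSSCG00000027831, chromosome 7, 86158381 to 86158945, plus strand), took another course. It was read at 135, 222 and 141 FPKM in the pXEN lines, at 134 and 133 in nESCs and at 125 and 130 in pESCs. Only pXEN line 2 stood apart, and the other 6 libraries spanned 125 to 141. The pXEN mean was 166 ± 48.2 (SD, n = 3) against 133 ± 0.674 (n = 2) in nESCs and 127 ± 3.75 (n = 2) in pESCs. The log2 difference was 0.31 from nESCs (95% interval -0.20 to 0.82, adjusted p = 0.263) and 0.39 from pESCs (-0.12 to 0.90, adjusted p = 0.177). Between pESCs and nESCs it was -0.08 (-0.64 to 0.47, adjusted p = 0.831). Without line 2 the pXEN differences came to 0.04 (adjusted p = 0.759) and 0.13 (adjusted p = 0.377). NOP10 in line 2 exceeded the mean of the other pXEN lines by 0.69 on the log2 scale, where the 724 tested protein-coding genes with a listed length under 500 bases had a median excess of 0.10. Its listed length, by which FPKM is scaled, is 269 bases, the shortest of the 10 genes. The ratio of DKC1 to NOP10 in FPKM was 0.346, 0.241 and 0.336 in the pXEN lines, 0.959 and 0.866 in nESCs and 0.576 and 0.566 in pESCs, and was lower in every pXEN line than in any stem cell line.

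**Figure D3:**
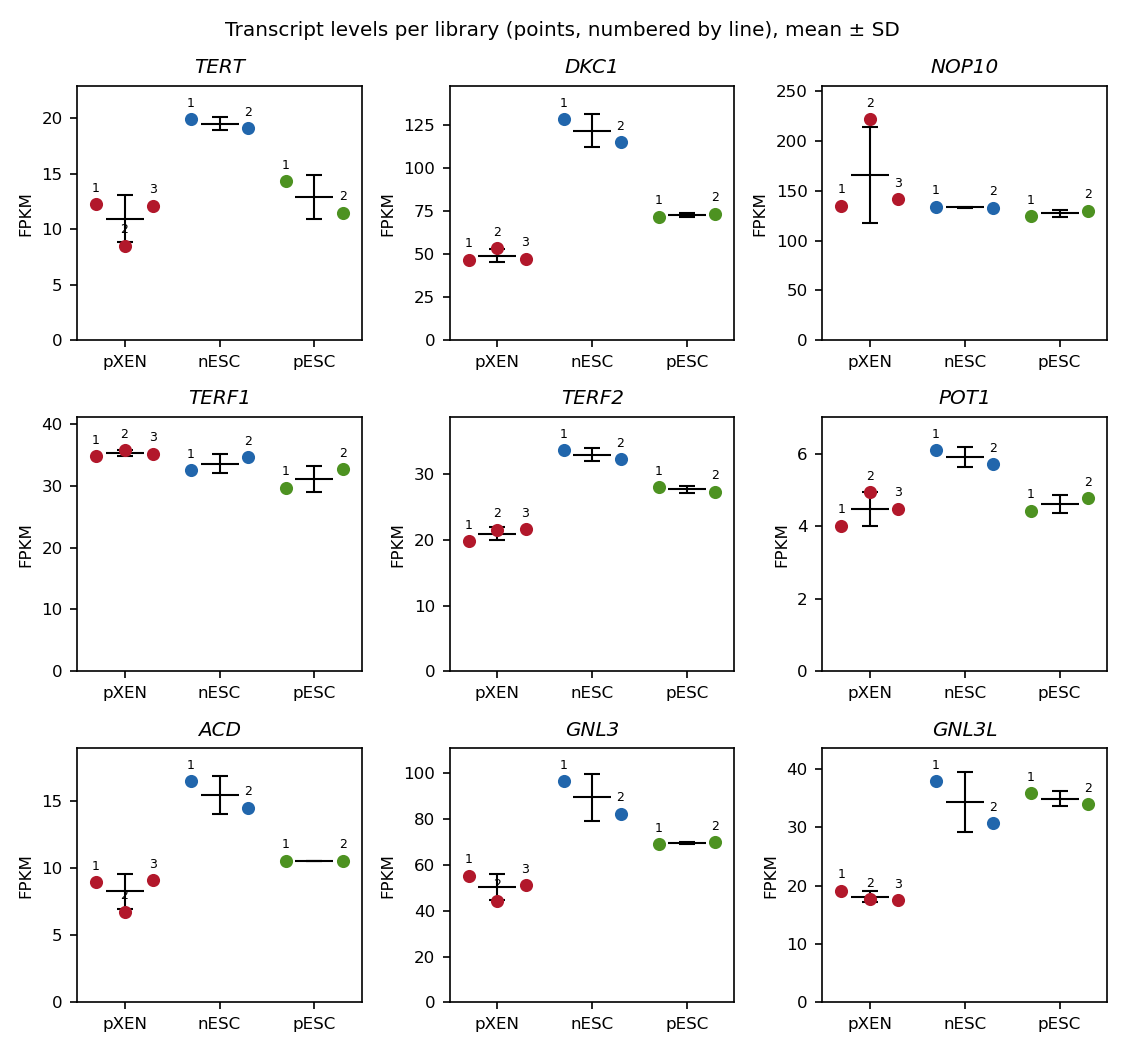
FPKM level (vertical axis, from 0) of each of the 9 detected genes by group (horizontal axis); points are libraries, numbered by line, and the dashes with error bars are group means with their SD. DKC1 has 3 separate groups at about 49.2, 122 and 72.6 FPKM, TERF1 has nearly level groups at 35.2, 33.5 and 31.1, and the high pXEN point of NOP10, at 222, is line 2.

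Of the shelterin genes, TERF1 and TERF2 encode the proteins that bind the double-stranded repeat. TERF1 (ENSSSCG00000006184, chromosome 4, 68342514 to 68375882, minus strand) was at 34.8, 35.7 and 35.1 FPKM in the pXEN lines, 32.4 and 34.6 in nESCs, and 29.6 and 32.6 in pESCs. Levels thus spanned 29.6 to 35.7 over the whole series, and the pXEN lines lay at the top of this narrow range. The log2 differences were 0.07 against nESCs (95% interval -0.19 to 0.32, adjusted p = 0.647), 0.19 against pESCs (-0.07 to 0.44, adjusted p = 0.208) and -0.12 between pESCs and nESCs (-0.40 to 0.16, adjusted p = 0.492). Each interval leaves out a fall as large as that of DKC1 in the same comparison, but not a smaller difference of either sign. The sign of the difference from nESCs itself turned with the scaling, to -0.11 under upper-quartile factors and -0.12 under library totals alone.

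TERF2 (ENSSSCG00000002762, chromosome 6, 16552313 to 16578543, plus strand), whose product guards ends against being joined, was at 19.7, 21.5 and 21.6 FPKM in the pXEN lines, 33.6 and 32.2 in nESCs, and 27.9 and 27.3 in pESCs. All pXEN lines were below all pESC lines, which were below all nESC lines. The means were 20.9 ± 1.04 (SD, n = 3), 32.9 ± 0.948 (n = 2) and 27.6 ± 0.475 (n = 2). TERF2 was 1.58 times lower in pXEN cells than in nESCs (log2 difference -0.66, SE 0.10, adjusted p = 0.000826) and 1.31 times lower than in pESCs (-0.39, SE 0.10, adjusted p = 0.0125). The difference between the stem cell states, -0.27 (95% interval -0.52 to -0.01), did not pass the test (adjusted p = 0.0991). The call against pESCs was lost without pESC line 1 (-0.38, adjusted p = 0.09) and without pESC line 2 (-0.42, adjusted p = 0.0702). In FPKM, the ratio of TERF1 to TERF2 was 1.76, 1.66 and 1.63 in the pXEN lines against 0.966 and 1.07 in nESCs and 1.06 and 1.20 in pESCs. The ratio is a description chosen after the values were seen, and its highest stem cell value stayed below its lowest pXEN value.

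ACD encodes TPP1, the shelterin protein that recruits telomerase (ENSSSCG00000029590, unplaced scaffold JH118995.1, 26318 to 31705, plus strand). Its level was 8.93, 6.74 and 9.07 FPKM in the pXEN lines, 16.4 and 14.5 in nESCs, and 10.5 in each pESC line. The pXEN mean was 8.25 ± 1.31 (SD, n = 3), beside 15.5 ± 1.41 (n = 2) in nESCs, and the ranges were separate. ACD was 1.88 times lower in pXEN cells than in nESCs (log2 difference -0.91, SE 0.16, adjusted p = 0.00166). Against pESCs the difference of -0.35 had an interval of -0.72 to 0.02 and did not pass (adjusted p = 0.106). In pESCs, ACD was 1.48 times lower than in nESCs (-0.56, SE 0.17, adjusted p = 0.0392), a call kept in 9 of 17 alternative fits with adjusted p-values from 0.00569 to 0.190. That call was lost without pXEN line 1 (-0.56, adjusted p = 0.0546) and without any one of the 4 stem cell lines (-0.65 to -0.47, adjusted p from 0.0796 to 0.190). Besides ACD the scaffold had 4 tested genes, too few for a chromosome value, and their median differences were -1.21, -0.43 and -0.36. An unnamed gene on the opposite strand covers 26.6% of the ACD interval and had 1 to 14 counts.

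POT1, the single-strand binding partner of TPP1 (ENSSSCG00000016597, chromosome 18, 24315318 to 24528743, plus strand), was the lowest of the 9 genes in every library. It was read at 4.01, 4.93 and 4.48 FPKM in the pXEN lines, 6.10 and 5.70 in nESCs, and 4.43 and 4.78 in pESCs. The nESC lines were above the other 5 libraries, and the pXEN and pESC lines overlapped. POT1 was 1.32 times lower in pXEN cells than in nESCs (log2 difference -0.40, SE 0.14, adjusted p = 0.0389), but this call was kept in only 5 of 17 alternative fits, with adjusted p-values from 0.00536 to 0.167. Leaving out any single library other than pXEN line 2 ended it, at -0.45 to -0.33. The difference from pESCs was -0.03 (95% interval -0.36 to 0.29, adjusted p = 0.873), and that of pESCs from nESCs was -0.37 (-0.73 to -0.02, adjusted p = 0.101).

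TINF2 (ENSSSCG00000001994, chromosome 7, 80327769 to 80330704, plus strand), the hub of shelterin, was listed at 0 in all 7 libraries, and a count of 0 allows up to 3 counts a library, or 0.231 to 0.288 CPM by depth. Its interval lies wholly within that of GMPR2, a guanosine monophosphate reductase gene on the minus strand (80327661 to 80341339), which had 653, 808 and 694 counts in the pXEN lines, 1254 and 1134 in nESCs and 924 and 931 in pESCs. Of 587 protein-coding genes that lie inside a gene of the opposite strand, 130 (22.1%) were at 0 in every library, against 3102 of 21020 others (14.8%). How reads shared by overlapping genes were assigned was not given in the sources used here, so the value of 0 cannot be read as absence of TIN2 RNA. No fold change is given for it.

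The nucleostemin pair was lower in pXEN cells against both stem cell states. GNL3 (ENSSSCG00000011449, chromosome 13, 38020617 to 38028557, plus strand) was at 55.4, 44.5 and 51.1 FPKM in the pXEN lines, 96.5 and 82.3 in nESCs, and 69.1 and 70.0 in pESCs. The groups were in separate ranges, with means of 50.3 ± 5.50 (SD, n = 3), 89.4 ± 10.1 (n = 2) and 69.5 ± 0.607 (n = 2). GNL3 was 1.78 times lower in pXEN cells than in nESCs (log2 difference -0.84, SE 0.12, adjusted p = 0.0007) and 1.38 times lower than in pESCs (-0.46, SE 0.12, adjusted p = 0.0154). In pESCs against nESCs the difference was -0.38 (95% interval -0.69 to -0.07) and did not pass (adjusted p = 0.0661). The call against pESCs was lost without pESC line 1 (-0.47, adjusted p = 0.0804) and without pESC line 2 (-0.46, adjusted p = 0.0869).

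The other genes on chromosome 13 leaned the other way from GNL3. These 1128 tested genes had a median difference of 0.47 in pXEN cells against nESCs, 0.40 against pESCs and 0.08 in pESCs against nESCs, so that GNL3 stood 1.30, 0.86 and 0.46 below its chromosome. The chromosome's higher level was present in 2 of the pXEN lines: the median deviations were 0.36, -0.05 and 0.39 in lines 1, 2 and 3, from -0.23 to -0.19 in nESCs and from -0.15 to -0.13 in pESCs. GNL3 less that median was -0.59, -0.48 and -0.74 in the pXEN lines, 0.80 and 0.54 in nESCs, and 0.22 and 0.25 in pESCs, with no overlap between groups. With scaling within each chromosome, the differences from nESCs and pESCs were -1.27 (adjusted p = 5.19e-05) and -0.83 (adjusted p = 0.000668), and that between pESCs and nESCs was -0.44 and passed the test (adjusted p = 0.0313). The small nucleolar RNA genes SNORD19, SNORD69 and SNORD19B in its interval had at most 33 counts each.

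GNL3L (ENSSSCG00000012336, chromosome X, 53113293 to 53141323, plus strand) had another profile over the stem cells. It was at 19.1, 17.6 and 17.5 FPKM in the pXEN lines, 37.9 and 30.7 in nESCs, and 35.8 and 34.0 in pESCs. The stem cell states overlapped, and every pXEN line was below each of them. The means were 18.1 ± 0.910 (SD, n = 3), 34.3 ± 5.11 (n = 2) and 34.9 ± 1.29 (n = 2). GNL3L was 1.90 times lower in pXEN cells than in nESCs (log2 difference -0.93, SE 0.12, adjusted p = 0.000333) and 1.92 times lower than in pESCs (-0.94, SE 0.12, adjusted p = 0.000404), and these calls were kept in the 17 alternative fits. Between pESCs and nESCs the difference was 0.01 with an interval of -0.29 to 0.31 (adjusted p = 0.964), and its sign turned with the scaling, to -0.08 under upper-quartile factors. The FPKM ratio of GNL3 to GNL3L was 2.89, 2.52 and 2.92 in the pXEN lines and 2.55 and 2.68 in nESCs, which overlap, and 1.93 and 2.06 in pESCs.

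By length-scaled level, the order of the 9 genes was much the same in each library. NOP10 was first, then came DKC1 and GNL3 in either order, and TERT, ACD and POT1 were the seventh, eighth and lowest. GNL3 was above DKC1 in pXEN lines 1 and 3, and DKC1 was above GNL3 in the other 5 libraries. GNL3L stood at rank 4 in nESC line 1 and in both pESC lines, and at rank 6 in nESC line 2 and in all pXEN lines, below TERF1 and TERF2. TERT itself ranged from 8.52 to 19.9 FPKM, and DKC1 was 3.82 to 6.45 times higher in FPKM in the same libraries. The pXEN lines were close to each other: the ratio of the highest to the lowest FPKM over these lines had a median of 1.23 over the 9 genes and of 1.38 over the 15542 genes whose mean reached 10 counts. This ratio was above 1.5 for 1 of the 9 genes (11.1%), NOP10 at 1.64, and for 39.6% of all such genes. The 9 genes had 223 or more counts in each library, while the wider set reaches down to a mean of 10. Low counts vary more by counting alone, so these sets are not matched for level. TERT and ACD in line 2 were below the mean of lines 1 and 3 by 0.50 and 0.40 on the log2 scale. Without line 2, TERT was at -0.69 against nESCs (adjusted p = 0.00158) and -0.08 against pESCs (adjusted p = 0.626). ACD without line 2 was at -0.79 against nESCs (adjusted p = 0.000618) and -0.22 against pESCs (adjusted p = 0.16). In the same setting, 7, 4 and 6 of the 9 genes were lower in the comparisons of pXEN cells with nESCs, pXEN cells with pESCs and pESCs with nESCs, where 29.8%, 28.9% and 19.4% of all tested genes were lower.

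In bulk RNA, fewer cells of a type and less RNA per cell cannot be told apart. A list of proliferation genes (5 of 6 had a row) summed to 1653 to 2110 CPM in pXEN cells, 2418 and 2629 in nESCs, and 1932 and 1936 in pESCs. Of its 5 tested genes, 3 were lower in pXEN cells against nESCs (60%, beside 26.2% of all tested genes), PCNA at -1.41, MKI67 at -0.60 and CCNB1 at -0.56 on the log2 scale, and TOP2A was higher at 0.41 (20%, beside 28.3%). CCNB1 lies on chromosome 16, like TERT, and was at 0.17 less the median of that chromosome. MCM2 lies on chromosome 13, like GNL3, and was at -0.03 as fitted and at -0.49 less the median of that chromosome. Against pESCs, 1 of 5 was lower, PCNA at -0.74 (20%, beside 24.4%). In pESCs against nESCs, where TERT, DKC1 and ACD were lower, 3 of 5 were lower (60%, beside 13.3%), with MKI67 at -0.69, PCNA at -0.67 and CCNB1 at -0.71, or -0.21 less the median of chromosome 16. The part of proliferation in the differences of telomerase, shelterin and nucleostemin genes was not tested.

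Around these members, 58 further gene names of telomere upkeep, nucleolar ribosome assembly and cell cycle control were listed by their roles, 2 of them second names of a gene also listed (STN1 with OBFC1 and MRE11 with MRE11A), and 50 genes were tested. In pXEN cells against nESCs, 24 were lower and 4 higher with a median log2 difference of -0.31, against pESCs 19 were lower and 3 higher with a median of -0.27, and in pESCs against nESCs 7 were lower and 3 higher with a median of -0.17. The percentages called were 56%, 44% and 20%, beside 54.5%, 48.3% and 32.2% of all tested genes in either direction. By direction, 48%, 38% and 14% of the tested list genes were lower, beside 26.2%, 24.4% and 13.3% of all tested genes, and 8%, 6% and 6% were higher, beside 28.3%, 23.9% and 19%. These shares are a description of lists chosen with results known.

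Genes that build the telomerase particle were lower in 5 of 8 cases against nESCs (62.5%, beside 26.2% of all tested genes) and in 2 of 8 against pESCs (25%, near the 24.4% of all tested genes). NHP2, the H/ACA partner of NOP10, was at 22.7, 24.5 and 16.8 FPKM in the pXEN lines, 63.9 and 62.3 in nESCs, and 40.7 and 41.5 in pESCs. It thereby had the same order of groups as DKC1, with log2 differences of -1.57 against nESCs (adjusted p = 0.000156), -0.94 against pESCs (adjusted p = 0.00291) and -0.63 between pESCs and nESCs (adjusted p = 0.035). NOLC1, a nucleolar chaperone of H/ACA particles, was at -0.67 (adjusted p = 0.000497) and -0.80 (adjusted p = 0.00026) in the pXEN comparisons. NAF1 (-0.61), which loads H/ACA proteins, WRAP53 (-0.54), which carries telomerase to Cajal bodies, and the ATPase RUVBL2 (-0.31) were lower against nESCs, and their differences of -0.31, -0.12 and -0.25 from pESCs did not pass. PARN, which trims the telomerase RNA, was at -0.10 and -0.36 and passed neither test. GAR1, the remaining H/ACA protein, had 4 counts in all under its own name, whereas a row without a symbol that is described as H/ACA ribonucleoprotein complex subunit 1 (ENSSSCG00000020907) had 383, 541 and 458 counts in the pXEN lines, 1060 and 867 in nESCs, and 809 and 800 in pESCs. That row, singled out after its values were seen, was at -0.93 against nESCs (adjusted p = 0.000574) and -0.53 against pESCs (adjusted p = 0.0114). The telomerase RNA gene TERC was not analysed here, since no row bears its symbol.

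TERF2IP, the RAP1 protein carried by TRF2, was at 35.9, 42.8 and 41.2 FPKM in the pXEN lines, 70.9 and 70.0 in nESCs, and 76.1 and 76.3 in pESCs. The pXEN lines were below all stem cell lines, at -0.82 against nESCs (adjusted p = 0.000364) and -0.92 against pESCs (adjusted p = 0.000265). Its list of shelterin partners and end-processing genes had 5 of 12 lower (41.7%) and 2 higher (16.7%) against nESCs, beside 26.2% and 28.3% of all tested genes, and 5 lower (41.7%) and 1 higher (8.33%) against pESCs, beside 24.4% and 23.9%. DCLRE1B, the Apollo nuclease that TRF2 brings to telomeres, was at -1.51 (adjusted p = 0.000169) and -0.74 (adjusted p = 0.00784). PIF1, a helicase that removes telomerase from ends, was at -1.66 (adjusted p = 0.000754) and -0.86 (adjusted p = 0.0226), and PINX1, a TRF1-binding protein that inhibits telomerase, was at -0.75 (adjusted p = 0.0249) and -0.86 (adjusted p = 0.0158).

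STN1, listed under its older symbol OBFC1, moved the other way. It belongs to the CST complex, which ends telomerase action and fills in the opposite strand, and was at 6.74, 6.61 and 7.70 FPKM in the pXEN lines against 2.65 and 2.93 in nESCs and 2.72 and 2.11 in pESCs. Its log2 differences were 1.32 (adjusted p = 0.00195) and 1.55 (adjusted p = 0.00113). The CST partner CTC1 was at -0.44 against nESCs (adjusted p = 0.0497) and -0.05 against pESCs (adjusted p = 0.81), and the third subunit gene, TEN1, was at 1.23 (adjusted p = 0.0686) and 0.83 (adjusted p = 0.196) and passed neither test.

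Genes of recombination-based telomere lengthening and of telomeric chromatin mostly did not pass the tests, with 1 of 8 called against nESCs (12.5%, beside 54.5% of all tested genes) and 2 of 8 against pESCs (25%, beside 48.3%). ATRX and DAXX, the chaperone pair for histone H3.3, were at 0.25 and 0.01 against nESCs and at 0.07 and 0.24 against pESCs. ZSCAN4, a gene of early embryos and of rare embryonic stem cells in mouse that is known for telomere lengthening, was higher: it had 62, 51 and 76 counts in the pXEN lines, 15 and 11 in nESCs, and 5 and 11 in pESCs, with log2 differences of 2.41 (adjusted p = 0.0024) and 3.25 (adjusted p = 0.000889). RMI2, a partner of BLM helicase, was lower against pESCs at -0.40 (adjusted p = 0.0378). Among the break-repair nuclease genes MRE11A, RAD50, NBN and FEN1, differences from nESCs ran from -0.14 to 0.14 with unadjusted p-values of 0.194 to 0.686, and RAD50 was higher against pESCs at 0.41 (adjusted p = 0.00968).

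Nucleostemin has relatives among the GTPases of ribosome assembly, and nucleolar proteins surround it in the cell. Of the GTPases GNL1, GNL2, LSG1 and MTG1, 3 were lower against nESCs (75%, beside 26.2% of all tested genes) and 1 against pESCs (25%, near the background of 24.4%). GNL1 was called in each of these comparisons, at -0.55 (adjusted p = 0.00439) and -0.40 (adjusted p = 0.0216), and GNL2, a nucleolar GTPase of the large ribosomal subunit, was at -0.59 (adjusted p = 0.00472) and -0.29 (adjusted p = 0.0873). The list of nucleolar ribosome assembly genes was not limited to the large subunit. In it, 7 of 8 were lower against nESCs (87.5%, beside 26.2% of all tested genes) with a median of -1.05. Against pESCs, 6 of 8 were lower (75%, beside 24.4%) with a median of -0.88.

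Nucleophosmin (NPM1), an abundant nucleolar protein, was at 630, 780 and 577 FPKM in the pXEN lines, 3043 and 2838 in nESCs, and 1489 and 1708 in pESCs. Its groups did not overlap, and its differences were -2.16 (adjusted p = 1.31e-05) and -1.26 (adjusted p = 0.000272). NPM1 also lies on chromosome 16, and less that chromosome's median it was at -1.42 and -1.21. Fibrillarin (FBL), the methyltransferase of box C/D particles, was at -1.79 (adjusted p = 8.47e-06) and -1.13 (adjusted p = 0.000125). PES1, WDR12, EBNA1BP2 and NOP56, which act in ribosome assembly, were all lower, at -0.74 to -1.25 against nESCs and -0.81 to -0.96 against pESCs. The NCL row, whose symbol was filled in by Ensembl identifier, held only 72 to 140 counts a library. NCL was lower against nESCs (-0.66, adjusted p = 0.0259) and was at -0.25 against pESCs (adjusted p = 0.355). Its difference between the stem cell states was -0.41 (adjusted p = 0.203). BOP1 was listed at 0 in every library, and the cause was not tested.

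**Figure D4:**
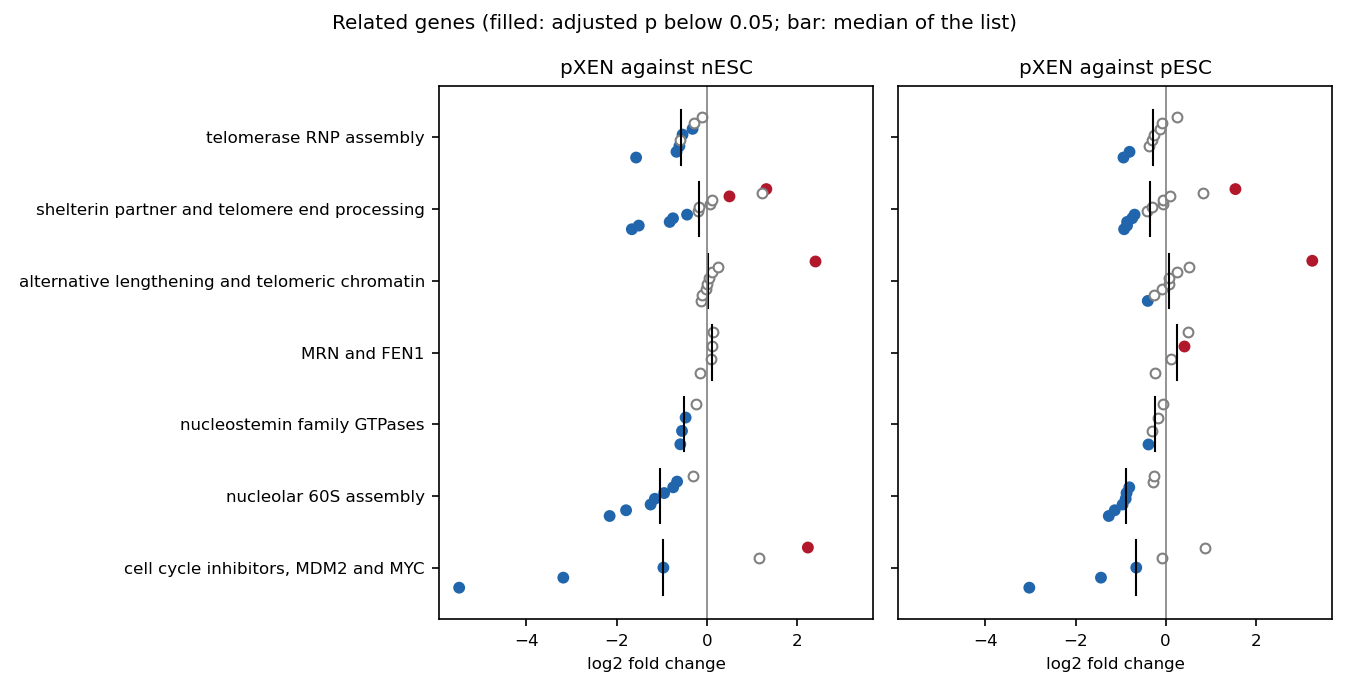
Log2 fold changes (horizontal axis) of tested related genes, by role, in pXEN cells against nESCs and against pESCs; each point is a gene, and filled points passed an adjusted p of 0.05. Vertical bars are list medians, and the nucleolar genes lie to the left with NPM1 at -2.16 and -1.26 as fitted (at -1.42 and -1.21 less the median of chromosome 16, where FBL less that of its own chromosome was at -1.79 and -1.10); the farthest filled points are CDKN2A at -5.49 (against nESCs) on the left and ZSCAN4 at 2.41 and 3.25 on the right.

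Nucleostemin is known to bind MDM2, a ubiquitin ligase, and MYC family factors are known activators of TERT. MDM2 was at -0.96 in pXEN cells against nESCs (adjusted p = 0.00105) and -0.65 against pESCs (adjusted p = 0.00856). CDKN1A, the gene of the cell cycle inhibitor p21, had 23, 15 and 47 counts in the pXEN lines against 520 and 58 in nESCs and 376 and 182 in pESCs, and was at -3.18 (adjusted p = 0.0134) and -3.03 (adjusted p = 0.0193), with a wide spread between the nESC lines. CDKN2A, the locus of p16 and ARF, which restrains cell division and MDM2, had 10, 21 and 10 counts in the pXEN lines, 706 and 655 in nESCs, and 4 and 14 in pESCs. It set nESCs apart from all other lines, at -5.49 in pXEN cells against nESCs (adjusted p = 1.03e-05) and -6.37 in pESCs against nESCs (adjusted p = 5.68e-05), and was at 0.88 between pXEN cells and pESCs (adjusted p = 0.182).

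MYCN was at 80.4, 57.8 and 74.9 FPKM in the pXEN lines, 14.0 and 15.8 in nESCs, and 70.9 and 80.9 in pESCs. It was higher in pXEN cells than in nESCs (2.24, adjusted p = 2.05e-05) and in pESCs than in nESCs (2.33, adjusted p = 8.07e-05). Between pXEN cells and pESCs MYCN differed by -0.09 (adjusted p = 0.664). MYC was low throughout, at 0.360 to 3.56 FPKM, and was lower in pXEN cells than in pESCs (-1.44, adjusted p = 0.028).

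The genes with profiles most like those of TERT, GNL3 and GNL3L were found by Pearson correlation of log2 CPM over the 7 libraries, among 10098 genes. The points share 3 groups of libraries, so high values are common, and the coefficients are descriptions. TERT was closest to FAM122B (0.990), PANK4 (0.990) and TRIM65 (0.989), and 69 genes had a coefficient above 0.95. GNL3 was closest to SRSF6 (0.993), C16orf59 (0.992) and KAT5 (0.992), with 242 genes above 0.95. GNL3L was closest to THAP7 (0.997) and EIF4G3 (0.995), with 407 genes above that value.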

How the data were processed

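RNA was sequenced from 7 cultures, 1 library per cell line, as directional libraries depleted of ribosomal RNA, and libraries were grouped by the cell type in their labels. As deposited, the table held whole-number read counts per gene, which the authors made with HISAT2 2.0.5 and featureCounts 1.5.0-p3 on Sscrofa10.2, per the submitters' processing notes, and FPKM values that the authors derived from those counts by gene length. Each FPKM equals the count over the listed length and 1 total per library, which was 0.913 to 0.964 times the count total in pXEN cells and 1.04 to 1.08 times in stem cells, so FPKM sets pXEN levels higher than CPM would. The authors also listed edgeR 3.22.5. Whether counting used strand was not given in the sources used here. Symbols for 1785 genes without one were filled from a reference table by Ensembl identifier.

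The members and gene lists were chosen with earlier results of these data known. Counts were tested with edgeR 4.0.16 (R 4.3.3): filterByExpr, TMM factors, and a quasi-likelihood fit with 1 mean per cell type over all 7 libraries, with Benjamini-Hochberg adjustment over 17447 genes. The biological coefficient of variation was 0.223. Standard errors and 95% intervals come from the same fit. The groups hold 3, 2 and 2 lines, the labels do not say which nESC line each pESC line came from, and where lines share an origin the p-values measure only the spread between these libraries. The intervals take in the spread between libraries. The floor of 3 counts covers counting error only and treats each read as a distinct molecule. The scripts were tested on simulated counts. Alternatives were upper-quartile and RLE factors, library totals alone, no filter, the compared libraries alone, a replicate block, each library left out, DESeq2 1.42.0, limma 3.58.1 on log2(FPKM + 0.1) and log2(FPKM + 1), differences less the chromosome median and, chosen after the data were seen, TMM factors within each chromosome of at least 100 tested genes. Named genes were all members and overlapping genes, the list genes called in the same direction in each pXEN comparison or otherwise the 2 with the largest change per list, and the 3 nearest profiles of TERT, GNL3 and GNL3L, except 2 genes that are not reported here. The list genes PARN, NAF1, WRAP53, RUVBL2, CTC1, TEN1, ATRX, DAXX, RMI2, GNL2, NCL, CDKN2A, MYC and MYCN, and the marker genes, were named after their values were seen. Replicate numbers did not pair the libraries: correlations of same-numbered deviations ran from -0.00892 to 0.0442.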

Additional observations from a re-analysis of the deposited data

How the results depend on the processing

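Of 459 tested fold changes of the 9 genes under alternative settings, 403 kept direction and side of the threshold, 10 uncalled ones changed sign (TERF1 in pXEN cells against nESCs, POT1 against pESCs and GNL3L in pESCs against nESCs), 36 lost a call and 10 gained one. For pXEN cells against nESCs, 6 or 7 genes were lower without any one library. Against pESCs, 4 genes were lower as reported and 2 to 4 without 1 library; the 2 were DKC1 and GNL3L, without either pESC line. The 3 genes lower in pESCs than in nESCs became 6 with upper-quartile factors (16.5% of all genes lower, from 13.3%), 5 with the compared libraries alone (19.9%), 1 with limma at either pseudocount (DKC1; 13.1% and 14%), and 1 to 6 without 1 library (5.07% to 19.4%). With the replicate block, 6, 4 and 2 genes were lower in these comparisons, and the calls of POT1 in pXEN cells against nESCs and of ACD in pESCs against nESCs ended. The replicate numbers do not pair the lines, so this block describes no shared origin. With scaling within each chromosome 5, 4 and 3 genes were lower. Less the chromosome median, TERT was at -0.10, -0.18 and -0.11 and GNL3 at -1.30, -0.86 and -0.46. Library totals alone moved the median of all genes to -0.18 and -0.19 in the pXEN comparisons and the split against pESCs from 4168 higher and 4261 lower to 3446 and 5405, and added ACD as lower (-0.52, adjusted p = 0.0369). Without 1 pESC line, the count of all genes lower in pESCs than in nESCs went from 2313 to 928 or 937. With 2 lines in a stem cell group, 1 line decides several calls, and at 7 libraries the intervals of TERT against pESCs span -0.65 to 0.19. The causes of these changes were not tested.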
